A study of Ciona robusta with 8 samples.

Results

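The change that cardiopharyngeal progenitors of the sea squirt Ciona robusta undergo between 15 and 18 hours post fertilization (hpf) was described from the 4 libraries made with a control guide RNA (gRNA). These are 2 libraries at 18 hpf and 2 at 15 hpf, of 8 libraries in the series. The other 4 were made with a gRNA that targets Tcf, the transcription factor through which beta-catenin acts in Wnt signalling, 2 at 18 hpf and 2 at 15 hpf, in a study that used CRISPR/Cas9 mutagenesis in trunk ventral cells. The members were taken by title, and each library is bulk RNA from trunk ventral cells that had been sorted, 200 to 800 cells a sample. The sequence that the control gRNA targets, the reporter used for the sort and the number of embryos pooled are not stated in the labels. Nothing in the labels says that the 2 libraries of a time came from separate electroporations, so the spread behind the p-values may be technical.

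In ascidians, heart and pharyngeal muscle arise from a common pool of progenitors, the trunk ventral cells. They are founded by cells that express the transcription factor Mesp, migrate from the tail into the trunk under FGF signalling, and then divide asymmetrically into heart precursors and a lineage that gives second heart and pharyngeal muscle precursors. The transcription factor Ebf marks the pharyngeal muscle branch. The labels call the cells of both times multipotent cardiopharyngeal progenitors. The deposited tables identify genes by models of the KH gene set and do not pair them with symbols, and 0 of their 15232 identifiers were found among the 21486 genes of the table supplied for names, whose assembly is a different one. The lists of cardiopharyngeal regulators, signalling pathways and markers of other cell types could therefore not be applied, and the labelled cell type could not be checked against its markers. Models are described as groups, and at most 2 that rose and 2 that fell are given by identifier. In bulk RNA, fewer cells of a type and less RNA per cell cannot be told apart, and this holds for every difference below.

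The libraries held 9556959 and 6554315 counts at 18 hpf, against 6207795 and 7765068 counts at 15 hpf, so that 1 count equalled 0.105 and 0.142 CPM (counts relative to a common library total, after scaling) at 18 hpf and 0.169 and 0.135 CPM at 15 hpf. No molecular identifiers are described, so intervals and floors cover counting error only. At least 1 count was present for 14054 and 14298 models at 18 hpf and for 13305 and 13936 models at 15 hpf. When each library was reduced by calculation to the smallest total of 6207795 counts, 13761 and 14264 models were expected at 18 hpf, against 13305 and 13757 at 15 hpf. The replicates at 18 hpf and 15 hpf were not deposits of the same library, since their counts differed by a chi-square of 15.7 and 9.35 per degree of freedom. These values lay below the 52.6 to 69.2 found between libraries of different times.

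Over the 3 hours, 856 models rose and 701 fell, out of 11970 with enough counts to be tested. The models called in either direction were 13% of those tested, with 7.15% higher and 5.86% lower at 18 hpf (edgeR's quasi-likelihood test with Benjamini-Hochberg adjustment, adjusted p under 0.05). The changes of the 2 directions differed in size and in level. The models that rose had a median fold of 3.43 and a median level of 37.2 CPM at 18 hpf, against 11.4 CPM at 15 hpf. The models that fell had a median fold of 1.98 and a median level of 49.5 CPM at 18 hpf, against 100.2 CPM at 15 hpf. All called models were separated in the 4 libraries, with both values of 18 hpf above, or both below, the values of 15 hpf. Separation alone was common, since 28.1% of the tested models were separated upwards and 24.9% downwards. Without 15 hpf replicate 1 the number of called models fell to 920, and without 18 hpf replicate 2 it fell to 993.

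**Figure D1:**
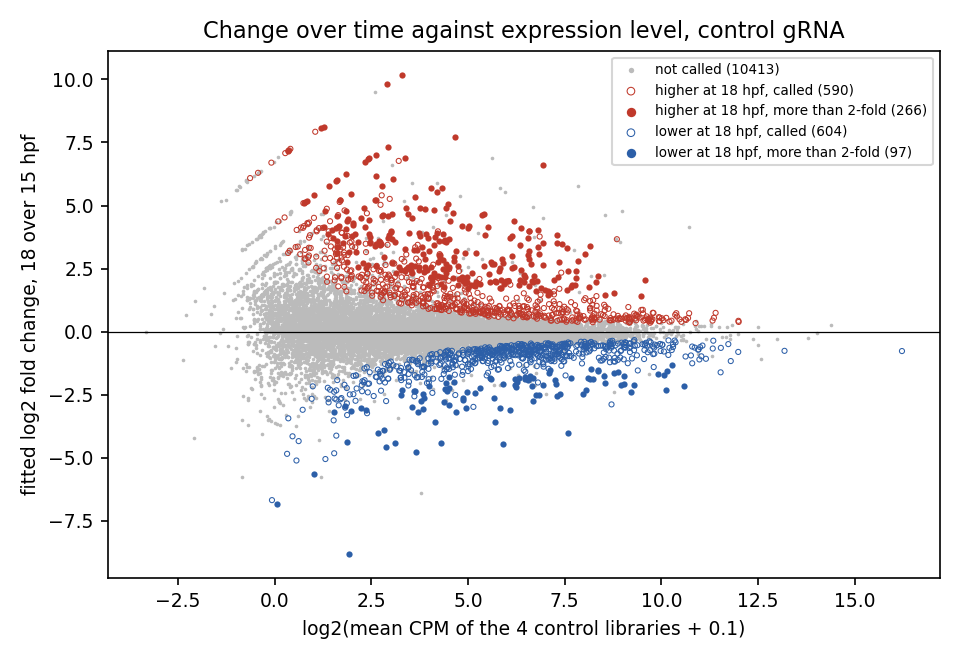
Fitted log2 fold change of 18 over 15 hpf (vertical axis) against the mean level of the 4 control libraries as log2(CPM + 0.1) (horizontal axis), 1 point for each of the 11970 models tested. Open circles are models called at an adjusted p under 0.05 and filled points the 266 higher and 97 lower models called by the test against a 2-fold change.

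The median log2 fold change of all tested models was 0.02, and 51.4% were positive, but this centre moved with the level. By class of mean level, from the lowest of 5 to the highest, the median log2 fold change was 0.30, 0.09, 0.01, -0.03 and -0.06. The median absolute log2 fold change was 0.41 and the median standard error 0.35. A test against a change of 2-fold, which asks whether the change exceeds that size and not merely 0, called 363 models, 3.03% of those tested. Of these 266 were higher at 18 hpf (2.22%) and 97 were lower (0.81%). With limma-voom the same test called 176, of which 113 were higher and 63 lower.

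Large changes were mostly increases. Where a group had fewer than 3 counts over its 2 libraries, the fold was taken against 3 summed counts as a floor, which applied to 46 of the models that rose and 9 of those that fell. On this scale 378 models rose and 119 fell by at least 4-fold. At 8-fold or more the numbers were 218 and 39, and at 16-fold or more 85 and 13. Among the models that fell, 358 of 701 changed by less than 2-fold, as did 262 of the 856 that rose. The smallest called changes were 1.26-fold in both directions. These sizes belong to models chosen by the same comparison, and they describe the called models without testing them.

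**Figure D2:**
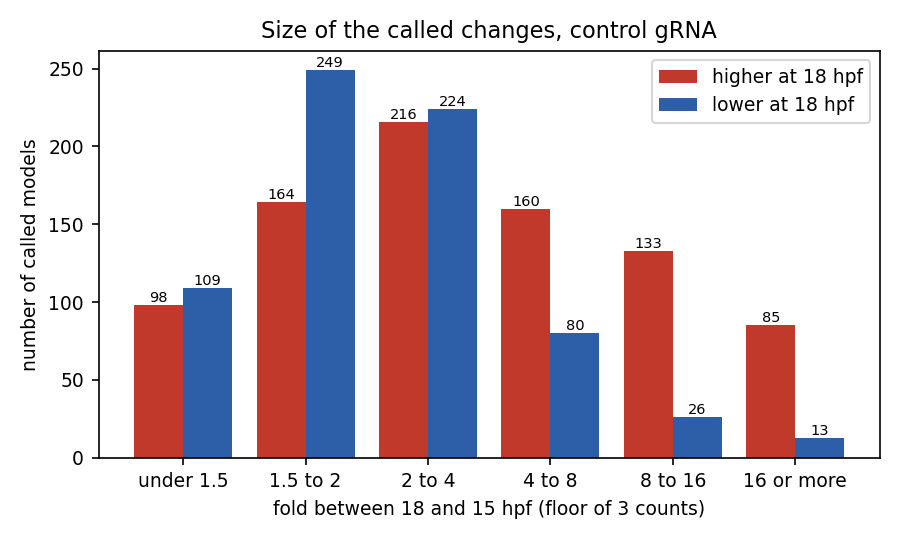
Number of called models (vertical axis) by size of the change between 18 and 15 hpf (horizontal axis, fold with a floor of 3 counts over a group), for models higher and models lower at 18 hpf. At 16-fold or more there are 85 higher and 13 lower models, and between 1.5 and 2-fold 164 higher and 249 lower.

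The balance of increases and decreases also shifted along the expression range, although both were most frequent at the highest levels. The tested models were divided into the 5 classes of 2394 by their mean over the 4 libraries, class 1 being the lowest and class 5 the highest. The median change of all models of a class, given above, leaned the same way as the calls in every class but class 4. In class 3 this median was only 0.01. The part of these medians in the balance of calls was not tested. In class 5, above 70.2 CPM, 274 models rose and 364 fell, which is 11.4% and 15.2% of the class. In class 4, between 21.7 and 70.2 CPM, 173 rose and 168 fell. In class 3, between 7.54 and 21.7 CPM, 191 rose and 91 fell. Increases outnumbered decreases further below that, with 156 against 62 in class 2 and 62 against 16 in class 1. The classes differ in precision, since the median standard error was 0.15 in class 5 and 0.89 in class 1. The smallest called log2 change was 0.33 in class 5, 0.78 in class 3 and 1.97 in class 1. Changes of 2-fold were thus called in the upper 3 classes, and none that small was called in class 1 at this depth. Models of low level were tested only where at least 2 libraries, from any groups of the series, reached the count minimum.

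**Figure D3:**
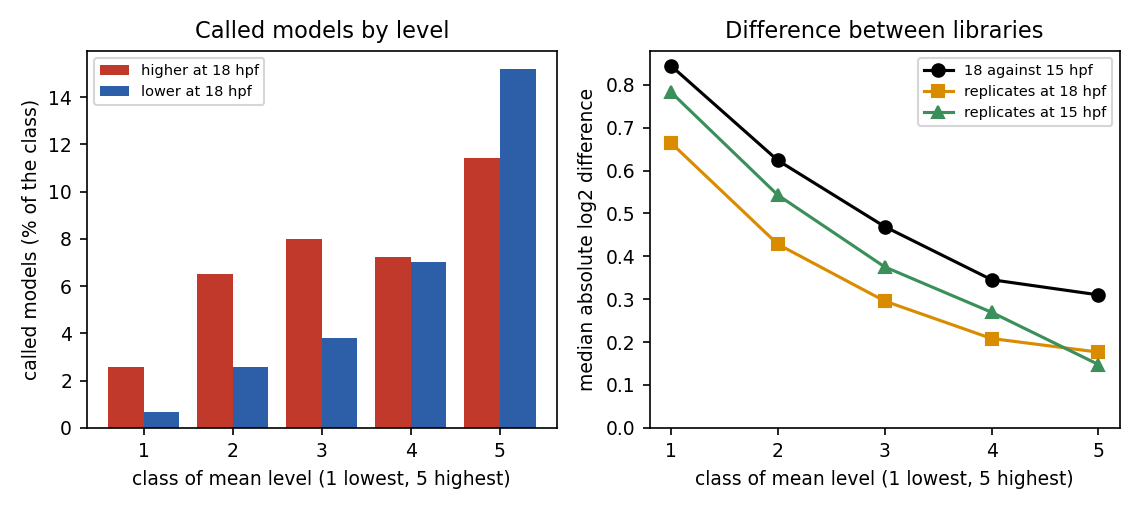
Left, share of the models of each class of mean level that was called higher or lower at 18 hpf (vertical axis in percent, horizontal axis the 5 classes). Right, median absolute log2 difference between libraries in the same classes, for 18 against 15 hpf (mean of the 4 pairs) and for the replicates at each time, where the difference between times lies above that between replicates in each class.

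The difference between times exceeded that between replicates in each class. In class 5 the median absolute log2 difference was 0.31 between times, 0.18 between the replicates at 18 hpf and 0.15 between those at 15 hpf. In class 1 it was 0.84 between times, 0.66 between the replicates at 18 hpf and 0.78 between those at 15 hpf. The margin was thus small where levels were low. Over all tested models, 20.2% to 26.0% differed by more than 2-fold between a library of 18 hpf and one of 15 hpf, against 11.2% between the replicates at 18 hpf and 16.3% between those at 15 hpf. Pearson's r of log2 CPM across models, which are not independent replicates, was 0.966 between the replicates at 18 hpf and 0.956 between those at 15 hpf, and it was 0.906 to 0.922 between libraries of different times.

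The balance of directions varied with the level at 15 hpf. The shares of all tested models were 5.86% lower and 7.15% higher. Among the 127 models that averaged at least 1000 CPM at 15 hpf, 51 fell (40.2%) and 17 rose (13.4%). Among the 1675 models between 100 and 1000 CPM, 300 fell (17.9%) and 146 rose (8.72%). The 4610 models between 10 and 100 CPM were close to balance, with 286 that fell (6.20%) and 276 that rose (5.99%). Of the 4501 models between 1 and 10 CPM, 64 fell (1.42%) and 252 rose (5.60%). In the 1057 tested models under 1 CPM at 15 hpf, 165 rose (15.6%) and 0 fell. All 165 reached at least 1 CPM at 18 hpf. A model that low at 15 hpf passed the filter on low counts at least in part through libraries of other groups, and from such a level a further decrease was hardly detectable. Classes made from the level at 15 hpf also share the error of those libraries with the fold change.

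Detection in 1 time only was counted over all 15232 models. At 18 hpf 245 models had at least 1 count in both libraries and 0 counts in both libraries of 15 hpf. The reverse held for 48 models. Most of these models were barely detected, with a median of 5 counts over the group at 18 hpf and 3 at 15 hpf. At least 10 counts in both libraries were reached by 12 of the 245 and by 2 of the 48. Of the first set 30 could be tested and 13 rose, and of the second 4 could be tested and 3 fell. Over all tested models 7.15% rose and 5.86% fell. These sets were chosen by their 0 counts at 1 time in the same libraries, which fixed the direction, so the calls describe them without testing them. Beside these counts stand the numbers of models with a count at a common total given above. They were higher at 18 hpf in each of the 4 pairs of libraries, but only by 13761 against 13757 in the closest pair. The replicates of a time lay further apart than that pair, with 13761 and 14264 at 18 hpf and 13305 and 13757 at 15 hpf. The part of these numbers in the counts of 245 and 48 was not tested.

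**Figure D4:**
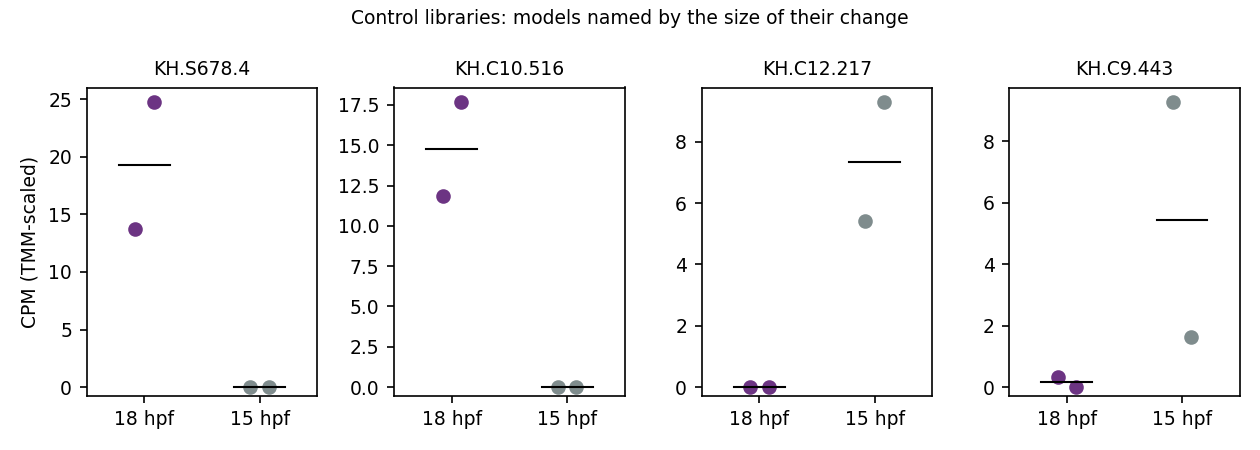
CPM in each control library (vertical axis, a scale for each panel) of the 4 models named by the size of their change, with 18 hpf left of 15 hpf, a point for each library and a line at the mean of 2. KH.S678.4 and KH.C10.516 are at 0 in both libraries of 15 hpf, and KH.C12.217 is at 0 in both libraries of 18 hpf.

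The models named are those with the largest fitted changes among called models with separated libraries and a mean of at least 5 CPM at the higher time. KH.S678.4 had 131 and 175 counts at 18 hpf and 0 counts in both libraries at 15 hpf. Its level at 18 hpf was 19.2 ± 7.81 CPM (SD, n = 2; adjusted p = 0.000711, edgeR's quasi-likelihood test). Against the floor of 3 summed counts at 15 hpf it was 81.9-fold higher, and the lower limit of the 95% exact counting interval was 66.2-fold. KH.C10.516, a model on chromosome 10 by its identifier, had 113 and 125 counts at 18 hpf and 0 counts in both libraries at 15 hpf. It averaged 14.8 ± 4.14 CPM at 18 hpf (SD, n = 2; adjusted p = 0.000216, edgeR). Against the same floor of 3 summed counts it was 63.7-fold higher, with a lower 95% counting limit of 51.4-fold. Both were thus undetected in the control libraries at 15 hpf and present in both later ones. In the Tcf libraries both had counts at each time. KH.S678.4 had 241 and 126 counts there at 18 hpf, against 6 and 28 counts at 15 hpf (log2 fold change 3.22, adjusted p = 0.0096, edgeR). KH.C10.516 had 237 and 71 counts in Tcf libraries at 18 hpf, against 24 and 27 counts at 15 hpf (log2 fold change 2.37, adjusted p = 0.015, edgeR). The interaction of guide and time did not pass for either (adjusted p = 0.875 for KH.S678.4 and 0.562 for KH.C10.516, edgeR).

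KH.C12.217, on chromosome 12 by its identifier, had 0 counts in both libraries at 18 hpf, against 32 and 69 counts at 15 hpf. It averaged 7.36 ± 2.76 CPM at 15 hpf (SD, n = 2; adjusted p = 0.000278, edgeR). Against the floor of 3 summed counts at 18 hpf it was 41.9-fold lower there, with a lower 95% counting limit of 33.5-fold. KH.C9.443, on chromosome 9, had 3 and 0 counts at 18 hpf, against 55 and 12 counts at 15 hpf, which is 0.157 ± 0.222 CPM at 18 hpf and 5.45 ± 5.42 CPM at 15 hpf (SD, n = 2 each). The summed counts gave a ratio of 27.8, lower at 18 hpf, with a 95% exact counting interval of 9.12 to 138. The libraries of the times did not overlap, but replicate 1 of 15 hpf lay far above replicate 2. The model was called with an adjusted p of 0.0158 (edgeR), and the call was lost without 15 hpf replicate 1 (log2 fold change -3.10, adjusted p = 0.191), without 18 hpf replicate 2 (log2 fold change -4.03, adjusted p = 0.0959) and with limma-voom (adjusted p = 0.16). In the Tcf libraries KH.C12.217 had 1 and 0 counts at 18 hpf, against 62 and 43 counts at 15 hpf (log2 fold change -6.58, adjusted p = 0.000553, edgeR). KH.C9.443 had 4 and 11 counts there at 18 hpf, against 15 and 28 counts at 15 hpf. It was not called in the Tcf libraries (log2 fold change -1.69, adjusted p = 0.311, edgeR). The interaction of guide and time did not pass for KH.C12.217 or KH.C9.443 (adjusted p = 0.989 for each, edgeR). KH.C9.443 did not pass the test against a 2-fold change in the control libraries (adjusted p = 0.0629), which the other three models passed (adjusted p = 0.00214, 0.000748 and 0.000944 for KH.S678.4, KH.C10.516 and KH.C12.217, edgeR).

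The called models took the following shares of the libraries. The 856 models that rose took 15.5% and 16.3% of the counts at 18 hpf, against 8.47% and 8.42% at 15 hpf. The 701 models that fell took 18.0% and 18.5% of the counts at 18 hpf, against 30.1% and 29.9% at 15 hpf. Replicates lay within 1 percentage point of each other. That the times did not overlap was set by the choice of the models, each of which was separated in these 4 libraries. The 266 models called as more than 2-fold higher held 2.26% and 2.55% of the counts at 18 hpf, against 0.441% and 0.422% at 15 hpf. The 97 called as more than 2-fold lower held 0.798% and 0.720% at 18 hpf and 2.69% and 2.65% at 15 hpf. The models called by the 2-fold test thus carried a small share of the counts at both times. Abundant models with a large fitted change that were not called, described below, are not in these shares. The 10413 models that were not called held 66.4% and 65.1% of the counts at 18 hpf and 61.3% and 61.6% at 15 hpf. These shares add to a fixed total within a library, so a fall in one class raises the others.

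**Figure D5:**
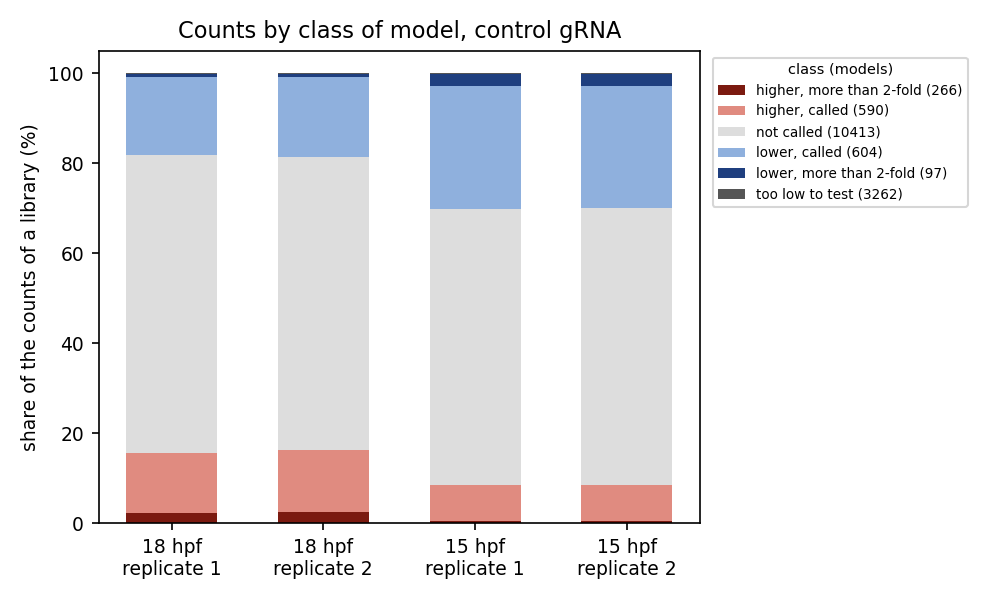
Share of the counts of each control library (vertical axis, percent) by class of model, with the 2 libraries of 18 hpf left of the 2 of 15 hpf. Models called as lower at 18 hpf, in both blue shades, take 18.0% and 18.5% of the counts at 18 hpf and 30.1% and 29.9% at 15 hpf.

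Losses lay in fewer models than gains, in large part through 1 model. Summed over models, the decreases in mean CPM at 18 hpf came to 202194 CPM and the increases to 118688 CPM. These sums need not be equal, since the scaled CPM of the tested models added to 1000425 and 926427 at 18 hpf, against 1047214 and 1046650 at 15 hpf. The 10 largest decreases made up 32.1% of all that was lost, and the 10 largest increases 12.5% of all that was gained. The largest decrease alone made up 19.7% of the loss and the next 9 made up 12.5%, while the largest increase made up 3.15% of the gain and the next 9 made up 9.38%. Of the loss, 50% lay in 48 models, of which 38 were called as lower, beside 5.86% of all tested models. Of the gain, 50% lay in 154 models, of which 120 were called as higher, beside 7.15% of all tested models. Both sets were ranked by the change in these same libraries, so the calls describe them without testing them. With the largest model of each direction left out, 50% of the loss lay in 96 models and 50% of the gain in 165.

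A single model was the most abundant in all 4 libraries and gave the largest decrease. Its level was 52426 and 60327 CPM at 18 hpf, against 96646 and 95584 CPM at 15 hpf. With edgeR the adjusted p was 9.59e-05, the change 1.70-fold lower at 18 hpf and its log2 value -0.77 (SE 0.09). Among the 10 largest decreases 7 were called, beside 5.86% of all tested models called as lower. The libraries of the times did not overlap in any of these 10, nor in any of the 10 largest increases. Over all tested models 24.9% were separated downwards and 28.1% upwards. The order is by the difference in mean CPM of these same libraries, so these counts describe the models without testing them. The ninth in this order showed the largest fold of the 10, with 607 and 518 CPM at 18 hpf against 2327 and 2679 CPM at 15 hpf, which is 4.45-fold lower (edgeR, adjusted p = 7.50e-07, log2 fold change -2.15, SE 0.12).

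Among the 10 largest increases, ranked in the same way, 6 were called, beside 7.15% of all tested models called as higher. The strongest evidence in this set was for a model with 1165 and 1292 CPM at 18 hpf, against 342 and 261 CPM at 15 hpf, 4.08-fold higher (log2 fold change 2.03, SE 0.14, adjusted p = 2.63e-06, edgeR). The 4 that were not called include the model with the largest increase of all, which had 24797 and 21539 CPM at 18 hpf and 19669 and 19183 CPM at 15 hpf (1.19-fold, adjusted p = 0.197). Another pair among the uncalled models differed between the replicates of 18 hpf. One had 4990 and 1337 CPM at 18 hpf, against 189 and 169 CPM at 15 hpf (log2 fold change 4.14, SE 1.46, adjusted p = 0.177). The other had 1529 and 409 CPM at 18 hpf, against 37.5 and 32.6 CPM at 15 hpf (log2 fold change 4.79, SE 1.56, adjusted p = 0.152). In both, each later library lay far above the earlier ones and replicate 1 far above replicate 2. The last uncalled model had 780 and 1005 CPM at 18 hpf, against 133 and 18.8 CPM at 15 hpf, and here the replicates of 15 hpf disagreed (log2 fold change 3.57, SE 0.99, adjusted p = 0.107).

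Disagreement of this kind was rare among abundant models. Of 2936 models that averaged at least 50 CPM at 18 hpf, 11 were more than 3-fold higher in replicate 1 and 1 was more than 3-fold higher in replicate 2, after 1 CPM was added to each value. Of 2952 such models at 15 hpf, 1 was more than 3-fold higher in replicate 1 and 3 in replicate 2. The 11 models higher in 18 hpf replicate 1 all had positive log2 fold changes, between 1.27 and 5.71, and 0 of them were called (smallest adjusted p = 0.0663, edgeR). Over all tested models 51.4% were positive and 13% were called. The 11 were chosen by a high value in 1 library of 18 hpf and its distance from the other. That choice bears on the sign and on the call, so neither is a result about these models.

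The set of the most abundant transcripts changed in part. By mean CPM, 9 of the 10 most abundant models and 80 of the 100 most abundant were shared by 18 and 15 hpf. The replicates shared 89 of the 100 at 18 hpf and 95 of the 100 at 15 hpf. Of the 20 models that were among the first 100 at 18 hpf only, 13 were called as higher, and of the 20 that were among them at 15 hpf only, 19 were called as lower. Of all first 100 in the ranking of 18 hpf, 25 were called as higher and 21 as lower. In the ranking of 15 hpf, 12 were called as higher and 40 as lower. Over all tested models the shares were 7.15% higher and 5.86% lower. The sets of 20 and of 100 were chosen by the means of these same libraries, so the calls describe them without testing them. Among the 1000 most abundant models 861 were shared by both times, against 937 between replicates at 18 hpf and 940 at 15 hpf. The 10 most abundant models took a smaller share of the counts at 18 hpf, 14.7% and 15.2%, against 18.7% and 18.5% at 15 hpf. Most of this difference lay in the most abundant model, the same in all 4 libraries. That model alone took 5.236% and 6.503% at 18 hpf, against 9.221% and 9.125% at 15 hpf.

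Called models were spread over the genome. The identifiers of 10475 models carry 1 of 14 chromosome numbers, and those of 4757 carry the letters L or S in place of one. On the chromosomes the share of tested models called in either direction ran from 10.6% on chromosome 14 to 15.0% on chromosome 13, beside 13% over all tested models. Chromosome 14 had 35 models that rose and 17 that fell among 489 tested. Chromosome 6 had the highest share of models that rose, 9.09% of 242 tested. For chromosome models the shares were 7.12% higher and 6.05% lower, and for L and S models 7.22% higher and 5.40% lower. These shares are descriptions and were not compared by a test.

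The same models were read in the Tcf libraries, which the calls did not use as groups although they shared the estimate of spread. Of the 856 models that rose in control libraries, 488 were also called as higher at 18 hpf in Tcf libraries, where 5.7% of tested models were called as higher. Of the 701 that fell, 451 were also called as lower there, where the share over tested models was 5.37%. None, 0 of 1557, was called in the opposite direction. The median log2 fold change of the models that rose was 1.78 in control libraries and 1.12 in Tcf libraries, and of those that fell -0.99 in control libraries and -0.79 in Tcf libraries. The models were chosen by their change in the control libraries, and the part of that choice in the difference was not tested. The sign in Tcf libraries was the same for 833 of the 856 models that rose in control libraries and for 686 of the 701 that fell. It was the same for all 266 models called as more than 2-fold higher and all 97 called as more than 2-fold lower. No share of equal signs over all tested models is given beside these. The interaction of guide and time, which tests whether the change over time differed, called 0 models with edgeR (0% of those tested, smallest adjusted p = 0.104), with 561 (4.69%) at an unadjusted p under 0.05. That share was 20.4% of the models that rose in control libraries (175 of 856) and 9.27% of those that fell (65 of 701), and it was 36.8% of those called as more than 2-fold higher (98 of 266) and 17.5% of those called as more than 2-fold lower (17 of 97). These sets were chosen by the control libraries, which also enter the interaction, so the shares are descriptions. It called 0 with limma-voom and 21 with DESeq2.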

How the data were processed

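The deposited values are whole-number read counts per gene model, 1 table a library, not normalized; TopHat2 2.0.12 and featureCounts were used, per the submitters' processing notes. Genome build, strand setting and handling of multi-mapping reads are not stated, so overlapping or near-identical models could share counts. SMART-Seq v4 cDNA and an Ovation Ultralow library kit were used, per the labels' protocols. Samples were grouped by title. In the control libraries at 15 hpf, headers and titles give opposite replicate numbers, and the titles were followed.

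Models were kept by filterByExpr (minimum count 10) and scaled by trimmed mean of M-values. The fit, with edgeR 4.0.16 (limma 3.58.1, R 4.3.3), had 4 group means over the 8 libraries, which share the estimate of spread, and 4 residual degrees of freedom. Calls are at an adjusted p under 0.05 over 11970 models, by the robust quasi-likelihood test and by glmTreat against 2-fold. Standard errors are the log2 fold change over the square root of F. An exact permutation test of 2 against 2 libraries cannot fall below p = 0.333 and was not used for single models. The scripts were tested on simulated data. DESeq2 1.42.0, limma-voom, other scalings, filters, sample sets and replicate blocks were alternatives. Models are named by the largest fitted change among called models with separated libraries and at least 5 CPM in the higher group, 2 in each direction. The members and lists were chosen with earlier results of these data known.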

Additional observations from a re-analysis of the deposited data

How the results depend on the processing

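The number of called models, 1557, stayed between 1272 and 1777 under the 8 alternatives of scaling, filter, tool, sample set and block, with 52.3% to 57.2% of the calls higher at 18 hpf. Leaving out 1 control library gave 920 to 1330 calls, with 51.0% to 60.2% higher. Of the models called, 348 of 856 that rose and 278 of 701 that fell were called in the same direction under all 12 alternatives, and 0 changed sign in any. A model that a stricter filter left untested counts here as not called. The median fold of these models was 4.51 for those that rose and 2.36 for those that fell, and of the rest 2.51 and 1.75. The test against a 2-fold change, with 363 calls, gave 176 with limma-voom and 262 to 329 without 1 control library. The interaction, with 0 calls, gave 1 without a filter on low counts, 21 with DESeq2 (18 more positive in control) and 0 to 4 without 1 control library. With at most 2 counts over the group in place of 0, the models detected in 1 time only numbered 770 at 18 hpf, where 0 counts gave 245, and 255 at 15 hpf, where it gave 48.

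With the replicate block of the titles' numbers the calls numbered 1385, with 353 by the 2-fold test and 0 for the interaction. With a replicate block of the numbers in the file headers they were 1407, 356 and 0. The correlation of same-numbered libraries' deviations from their group means was 0.0026 across models, and with 2 pairs nothing shows that the numbers pair the samples. Counting limits single models of low level, where the median standard error was 0.89 in the lowest class.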

Other observations

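The 11 abundant models that were more than 3-fold higher in replicate 1 than in replicate 2 of the control libraries at 18 hpf were looked up in the Tcf libraries after these values had been seen. Of these, 9 were also more than 3-fold higher in replicate 2 than in replicate 1 of the Tcf libraries at 15 hpf, whatever their level there, as were 28 (0.954%) of the 2936 models of at least 50 CPM in the control libraries at 18 hpf and 185 (1.55%) of the 11970 tested. Among the 2970 models that averaged at least 50 CPM in the Tcf libraries at 15 hpf, 33 (1.11%) showed such a difference, and 5 of the 11 were among these. The model with 4990 and 1337 CPM in the control libraries at 18 hpf had 833 and 2021 CPM at 18 hpf and 176 and 1706 CPM at 15 hpf in the Tcf libraries. The model with 1529 and 409 CPM in the control libraries at 18 hpf had 303 and 420 CPM at 18 hpf and 39.6 and 530 CPM at 15 hpf in the Tcf libraries. Which cells or steps these values come from was not tested.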
